A study of Mus musculus with 12 samples.

Results

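Methylation was described at the CpG cytosines of 5 genes of the neurotrophin system: the ligands Bdnf and Ntf3 and the receptors Ntrk2, Ntrk3 and Ngfr. A cytosine was a member where it lay in the gene body or within 2 kb upstream (GENCODE vM21 basic annotation, mm10) and had at least 10 reads in at least 9 of the 12 libraries. The rule held 859 cytosines, in 557 CpGs, of 1697478 cytosines that met the same read rule over the genome. Strands were kept apart, so 1 CpG could give 2 member cytosines. The genes were chosen by name, with earlier results of these data known, and no methylation level entered the rule.

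The libraries came from brain tissue, hippocampus mixed with cortex, of 4 wild-type (Wt) and 8 Tg2576 (Tg) mice at 11 months of age, and each was made by reduced representation bisulfite sequencing (RRBS). RRBS cuts DNA at CCGG and reads unmethylated cytosines as T after bisulfite treatment. Tg2576 mice carry a human APP transgene with the Swedish mutation of familial Alzheimer's disease under a prion promoter, and Wt mice lack it. By label, Wt comprised 3 females and 1 male and Tg 4 of each sex, with 1 library per animal. Replicate numbers below were given in record order and only name an animal. Bulk tissue mixes cell types, so a change of cell composition and a change within cells cannot be told apart.

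Neurotrophins are secreted proteins that keep neurons alive and adjust synapses. BDNF and neurotrophin-3 signal through the tyrosine kinases TrkB, encoded by Ntrk2, and TrkC, encoded by Ntrk3, while the receptor encoded by Ngfr binds all neurotrophins and the uncut precursors. Bdnf is transcribed from several alternative promoters, each with its own first exon spliced to a shared coding exon, and in neurons some of these promoters respond to activity.

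Total coverage per library, summed over cytosines, ran from 33619981 reads in Tg female 4 to 131446104 in Tg female 1. Member cytosines had a median of 38 reads per library, with a range of 10 to 177. Mitochondrial cytosines, which gave the background of unconverted or misread cytosines, stood at 0.988% to 1.18% in the 12 libraries. The library labelled Wt male went against its sex label: its mean level on chromosome X was 47.2%, against 38.7% to 49.7% in the libraries labelled female and 17.1% to 30.5% in the Tg males. Values without it are given where leaving it out changed a call or a sign, or moved a gene or region difference by over 1.5 times. Promoter cytosines of neuron markers had levels of 1.16% to 2.34% in Wt and 1.51% to 2.36% in Tg animals (8 of 8 genes measured). Those of astrocyte markers had 1.21% to 2.29% and 0.559% to 2.50% (3 of 6 genes). Oligodendrocyte markers had 3.01% to 6.30% in Wt and 2.67% to 3.89% in Tg animals (5 of 7 genes), and none of the 5 microglia markers had a covered cytosine. The part of cell composition in the results below was not tested.

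Bdnf had 8 clusters of annotated transcript starts, numbered from 5′ to 3′ and called promoters 1 to 8 here. Starts lay at chr2 positions 109674700, 109675897, 109677032, 109692436, 109693027, 109693563, 109694409 and 109709383 on the plus strand, and promoter 7 held a second start at 109694469. Each cytosine was given to the nearest start within 1000 bp. The 150 bases before the starts of promoters 4, 5 and 6 are shown because these neighbouring starts had very different coverage and levels. CpGs are in capitals (mm10, plus strand, chr2:109692286-109692435, chr2:109692877-109693026 and chr2:109693413-109693562).
Bdnf promoter 4: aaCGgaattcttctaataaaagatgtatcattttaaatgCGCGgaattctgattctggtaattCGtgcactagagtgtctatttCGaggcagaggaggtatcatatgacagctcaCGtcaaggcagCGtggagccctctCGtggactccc
Bdnf promoter 5: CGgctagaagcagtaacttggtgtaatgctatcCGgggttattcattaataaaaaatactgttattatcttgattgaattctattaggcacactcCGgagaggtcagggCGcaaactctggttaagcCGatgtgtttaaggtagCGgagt
Bdnf promoter 6: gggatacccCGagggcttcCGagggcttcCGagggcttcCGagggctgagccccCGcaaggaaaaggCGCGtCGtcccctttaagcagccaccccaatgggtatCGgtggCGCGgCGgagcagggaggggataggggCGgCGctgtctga

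The stretch before promoter 4 held 8 CpGs and no CCGG, and none of the 8 was a member. It held 1 copy of CGTCA, a core of the cAMP response element that CREB binds. The stretches before promoters 5 and 6 held neither CGTCA nor TGACG, its form on the other strand. One of these 2 motifs was present in 20.8% of 32851 RefSeq promoters of 300 bases, so its presence is a description only. In contrast, all 6 CpGs before promoter 5 were members, and 2 of its CCGG sequences lay in the stretch. Before promoter 6, 3 of 14 CpGs were members.

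Member cytosines covered the Bdnf promoters unevenly. They numbered 10 in promoter 1, 40 in promoter 2, 73 in promoter 3, 30 in promoter 5, 67 in promoter 6 and 47 in promoter 7, with 23 in the rest of the gene. Promoters 4 and 8 had 0 members. Around promoter 4 the reference held 28 CpGs and 2 CCGG sequences, and 9 CpGs had 10 reads in some library. Around promoter 8 it held 13 CpGs and 0 CCGG. The longest coding stretch, in the last exon (chr2:109723382-109724149), held 35 CpGs and 2 CCGG, and none of its cytosines was a member. The levels below therefore say nothing on promoters 4 and 8 or on the coding exon.

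Over the 12 animals, most Bdnf promoters had levels close to the mitochondrial background. Levels here are read-weighted over cytosines with 10 reads in all 12 libraries. Promoter 1 had a mean of 1.002% ± 1.43 (SD, n = 12, 3 cytosines), promoter 2 had 2.19% ± 1.02 (20 cytosines) and promoter 3 had 1.48% ± 0.657 (44 cytosines). Promoter 6 had 1.10% ± 0.386 (64 cytosines) and promoter 7 had 1.26% ± 0.697 (28 cytosines). The median of 18068 promoters of all genes was 0.908%. Promoter 5 stood highest, at 5.71% ± 3.33 over 9 cytosines. It exceeded promoter 6 in 12 of 12 animals, by 4.61 points on average (two-sided exact sign-flip permutation test, p = 0.000488, adjusted p = 0.00176 over 18 comparisons within genes), and promoter 3 in all but 1 animal (difference of promoter 3 minus promoter 5 -4.22 points, exact p = 0.000977, adjusted p = 0.00251). Promoters 6 and 7 differed by -0.161 points, with 5 of 12 animals higher in promoter 6 (exact p = 0.445).

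**Figure D1:**
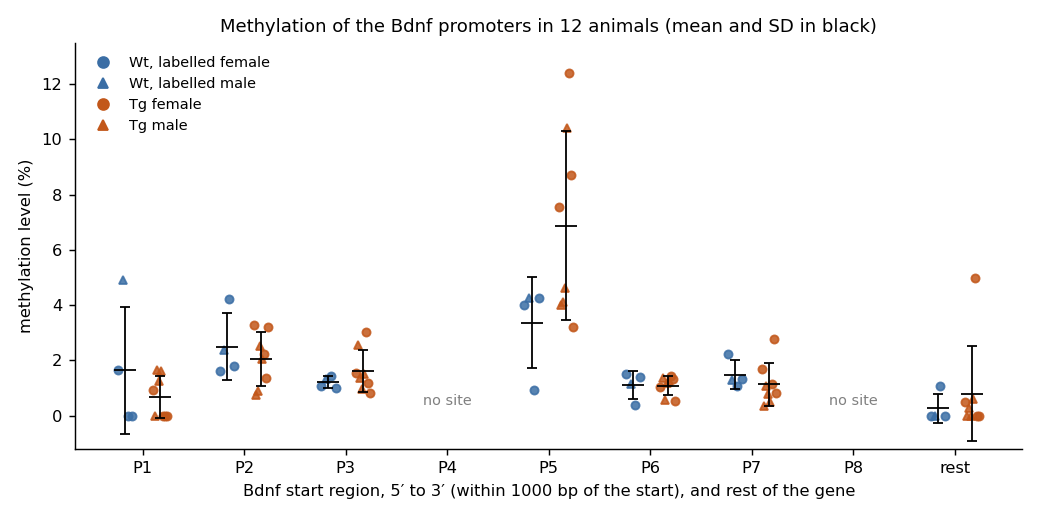
Methylation level in percent of each Bdnf promoter region (P1 to P8) and of the rest of the gene, with 1 point per animal, blue for Wt and orange for Tg, triangles for animals labelled male, and the mean with SD in black. Promoter 5 holds the highest points, from 0.929% in Wt female 2 to 12.4% in Tg female 2, and P4 and P8 have no member cytosine.

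The level of promoter 5 rested on single cytosines. Of its 30 members, 28 had a pooled level under 7%. The cytosine at position 109692973 on the minus strand, 54 bp before the start, had 24.5%, and that at 109693121 on the plus strand, 94 bp after it, had 60.8%, with 43.4% to 69.4% in the 11 animals that covered it. The other strand of the same CpGs had 2.21% and 2.13%. Without the cytosine at 109692973, promoter 5 had a mean of 1.61% ± 2.06 (n = 12, 8 cytosines). The second cytosine was not covered in all 12 libraries and did not enter the promoter level.

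**Figure D2:**
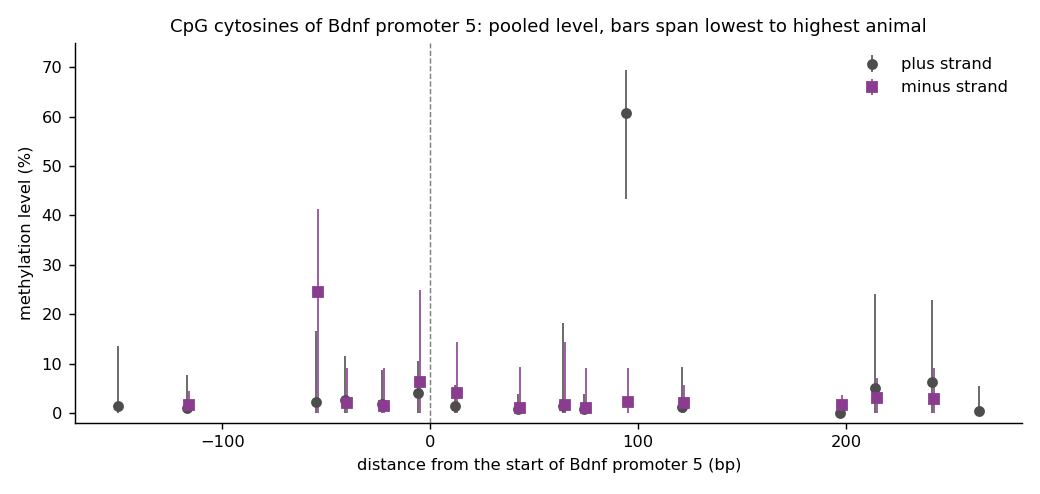
Pooled methylation level in percent of each of the 30 cytosines of Bdnf promoter 5 against the distance in bp from its start, with circles for the plus and squares for the minus strand and bars from the lowest to the highest animal. A minus-strand cytosine at 24.5% and a plus-strand cytosine at 60.8% stand above the rest, and their opposite strands are at 2.21% and 2.13%.

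Of 302 CpGs covered on both strands, 3 (0.993%) differed by over 20 points in pooled level, against 0.282% of 625614 over the genome. The 3 were the pair in Bdnf promoter 5 and 1 CpG in an intron of Ntf3, at 126162569 to 126162570 on chromosome 6, with 91.1% on the minus and 0.654% on the plus strand. All 3 lay in a CCGG, as did 202 of the 859 members. Both strands are shown 5′ to 3′ with the CpG in capitals (chr2:109692958-109692987, chr2:109693107-109693136 and chr6:126162555-126162584, mm10).
Bdnf 109692973, minus strand, 24.5%: cgccctgacctctcCGgagtgtgcctaata
Bdnf 109692972, plus strand, 2.21%: tattaggcacactcCGgagaggtcagggcg
Bdnf 109693121, plus strand, 60.8%: ggtgtgtctggggcCGgggcctgggggtgg
Bdnf 109693122, minus strand, 2.13%: ccacccccaggcccCGgccccagacacacc
Ntf3 126162570, minus strand, 91.1%: cagcctggctggccCGggaggggtgaggag
Ntf3 126162569, plus strand, 0.654%: ctcctcacccctccCGggccagccaggctg
The 2 strands of a CCGG are read from different fragment ends in RRBS, and the part of this in the differences was not tested.

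Outside the promoters, Bdnf held 1 methylated stretch. At chr2:109707953-109708058, in an intron 1325 to 1430 bp before promoter 8, 4 cytosines had a pooled level of 72.4%, with 57.1% in the lowest and 80.0% in the highest of the 11 animals covered. Wt animals had 70.4% ± 7.42 and Tg animals 72.1% ± 8.09. In the 10 other cytosines of the rest of the gene that all libraries covered, Tg female 2 had 4.99% where the other animals had at most 1.07%. In that animal 4 minus-strand cytosines between 109678132 and 109678163 had 14.3% to 18.2%, while the other 11 animals had 0% at each. The plus strand of the same CpGs had 0% in Tg female 2, and the 4 cytosines are close enough to share reads.

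Across the 5 genes, Ntrk2 was the most and Bdnf the least methylated over the cytosines covered. The mean over 12 animals was 15.5% ± 2.57 (SD) for Ntrk2, 4.04% ± 0.881 for Ntrk3, 2.67% ± 1.23 for Ntf3, 1.96% ± 0.647 for Ngfr and 1.49% ± 0.366 for Bdnf. Each gene exceeded the next in order within animals, in 12, 10, 10 and 11 of 12 animals (two-sided exact sign-flip permutation tests, adjusted p = 0.00195, 0.00716, 0.0425 and 0.00195 over 4 comparisons). The order was taken from these same levels, so the p-values only describe it. The genes also differed in which cytosines were covered: 267 of the 290 Bdnf members lay in a promoter region, while 91 of the 174 Ntrk2 members did not. Among the cytosines in all 12 libraries, which gave the levels, 10 of 178 in Bdnf and 27 of 62 in Ntrk2 lay outside the promoters.

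The methylated cytosines of Ntrk2 and Ntrk3 lay far from the starts. In Ntrk2 the 2 promoters with enough cytosines had 1.57% ± 1.35 and 1.17% ± 0.856, while the rest of the gene had 38.4% ± 5.96, higher in 12 of 12 animals (exact p = 0.000488, adjusted p = 0.00176 for each promoter). Within 300 bp of a start the median level of 77 cytosines was 0.631%, from 1000 to 2000 bp it was 15.3% over 9 cytosines, and beyond 20000 bp it was 75.8% over 69 cytosines. An untranslated stretch near the 3′ end of Ntrk2, chr13:59133626-59133738, had 91.3% over 6 cytosines. Ntrk3 had 1.38% ± 1.27 and 1.19% ± 0.548 in its promoters and 17.7% ± 3.03 in the rest (12 of 12 animals, adjusted p = 0.00176 for each). This rest level covers 18 cytosines, while the 57 members of the rest had a median pooled level of 51.3%. Part of these members lay upstream of every start used, in the part of the gene record beyond the basic transcripts. The Ntrk3 median was 0.520% within 300 bp and 79.8% beyond 20000 bp, counted on both sides of the starts. The 5 cytosines in the 3′ untranslated region of Ntrk3, at chr7:78302238-78302372, had 93.4%. In Ntf3 the coding cytosines, 6 at chr6:126101922-126102196, had 83.6%, and the 18 cytosines beyond 20000 bp had a median of 33.4%. Over the cytosines in all 12 libraries the rest of Ntf3 had 3.31% ± 1.57. It was higher than promoter 1, at 1.45% ± 1.36, in 11 of 12 animals (adjusted p = 0.00659 by the exact sign-flip permutation test), and higher than promoter 2, at 2.31% ± 1.56, in 8 of 12 (adjusted p = 0.104).

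Ngfr is a shorter gene, and most covered cytosines in the rest of it lay within 5000 bp of the start. Its rest level therefore cannot be set directly against those of the Trk genes. Its promoter had 1.92% ± 1.01 and the rest of the gene 1.98% ± 0.647, which did not differ beyond the spread (difference 0.0575 points ± 1.08, SD over animals, exact p = 0.854). The 60 cytosines from 1000 to 2000 bp had a median of 1.17%, and the 26 from 2000 to 5000 bp had 2.80%. The 12 members beyond 5000 bp, all within 20000 bp, had a median of 18.7% and a range of 0% to 88.5%. At the same distances the median was 11.8% over 2 cytosines in Ntrk2 and 4.80% over 16 in Ntrk3. For reference, the rest of 8983 genes had a median of 15.4%.

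**Figure D3:**
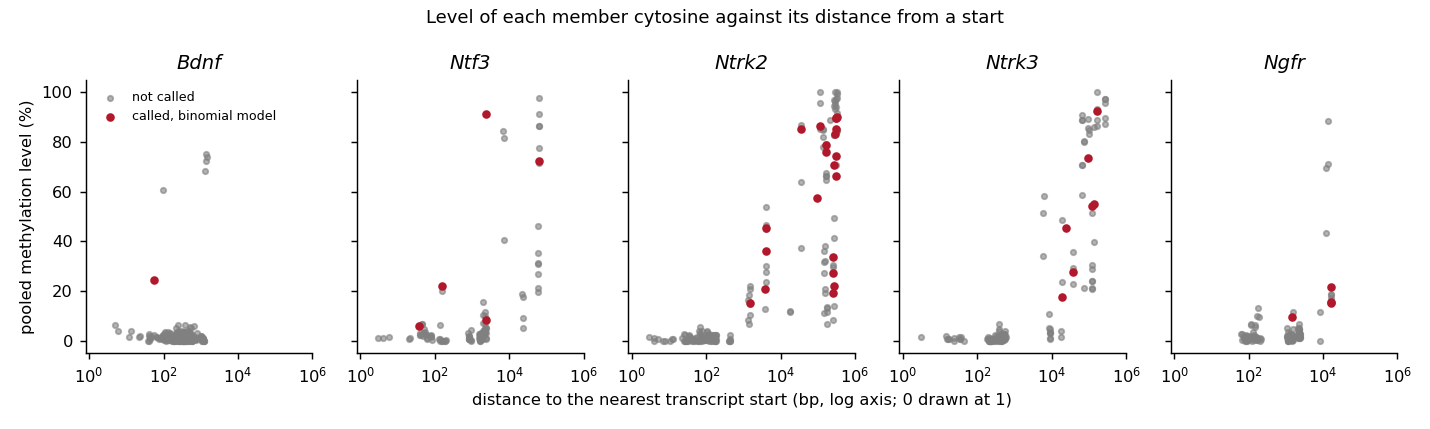
Pooled methylation level in percent of each member cytosine against its distance in bp to the nearest transcript start of its gene, on a log axis, with 1 panel per gene and cytosines called between Tg and Wt by the binomial model in red. Within 300 bp the medians are 0.520% to 1.82% in the 5 panels, beyond 20000 bp they are 75.8% in Ntrk2 and 79.8% in Ntrk3, and 57 of the 60 Ngfr cytosines at 1000 to 2000 bp are under 5%.

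The comparison of Tg with Wt asked whether methylation of these genes differed with the transgene. At the level of genes no difference exceeded the spread between animals. Bdnf had 1.57%, 1.16% and 1.38% in Wt females 1 to 3 and 1.48% in the library labelled Wt male, and a lowest, median and highest level of 1.0002%, 1.55% and 2.30% in Tg animals. The Tg animals spanned the whole Wt range. Tg minus Wt was 0.135 points (two-sided exact permutation test over all splits into 4 and 8 animals, p = 0.582). Ntf3 had 4.34%, 5.09% and 2.86% in the Wt females, 1.60% in the library labelled Wt male and 0.421%, 2.42% and 3.48% as the lowest, median and highest Tg levels. Wt females 1 and 2 stood above all Tg animals, and the library labelled Wt male stood below all but 1 of them. The difference was -1.21 points (exact p = 0.123). It was -0.674 points without Wt female 2 (exact p = 0.364), -0.923 points without Wt female 1 (exact p = 0.303), -1.84 points without the library labelled Wt male (exact p = 0.0121) and -2.30 points in females alone (exact p = 0.0286, the smallest that design allows). Oligodendrocyte marker promoters had means of 3.14% in Tg and 4.30% in Wt animals, and their part in the Ntf3 values was not tested.

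Receptor genes showed the same overlap. Ntrk2 had 14.8%, 11.3% and 12.8% in the Wt females, 17.8% in the library labelled Wt male and 14.04%, 14.9% and 20.03% as the lowest, median and highest of the Tg animals. The difference of 1.93 points gave an exact p of 0.232. It was 3.15 points without the library labelled Wt male (exact p = 0.0727) and 0.957 points without Wt female 2 (exact p = 0.545). Ntrk3 had 3.77%, 4.62% and 4.13%, then 2.85% in the library labelled Wt male, and 3.07%, 4.12% and 6.19% in Tg animals (difference 0.302, exact p = 0.622), or -0.0283 points leaving out the library labelled Wt male (exact p = 0.964). With all 143 cytosines, including those missing in some libraries, the Ntrk3 difference was 1.69 points (exact p = 0.0303). Animals were then compared over partly different cytosines, so this difference does not set like against like. Ngfr had 3.38%, 1.23% and 1.69%, then 2.45%, and 1.15%, 1.72% and 2.54% in Tg animals (difference -0.339, exact p = 0.430). Between Tg females and Tg males, 0 of the 18 regions of the 5 genes had an exact p under 0.05 over the 70 splits, where the smallest p the design allows is 0.0286. The lowest, 0.0571, was at Bdnf promoter 7, with 1.60% in females and 0.683% in males.

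**Figure D4:**
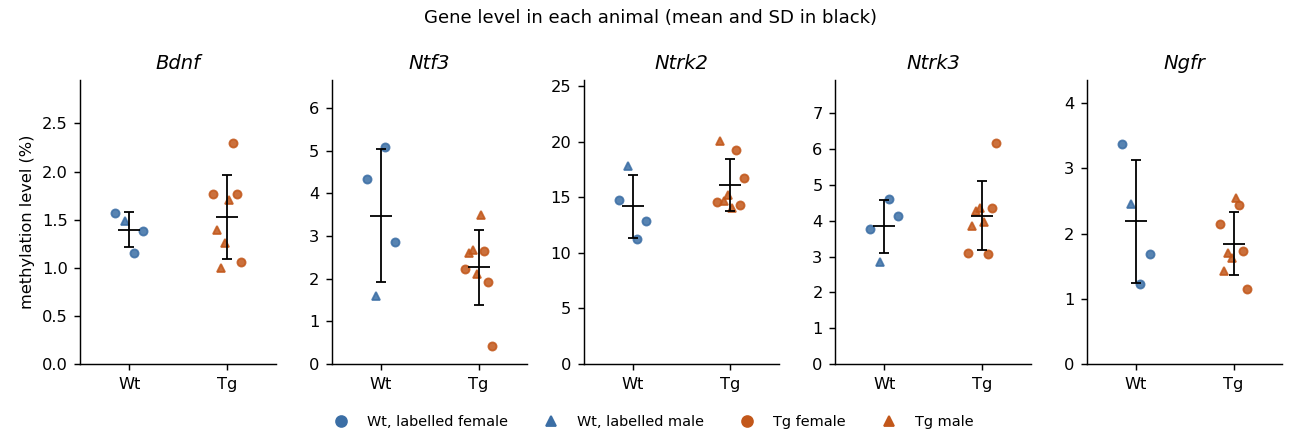
Methylation level in percent of each gene in each animal, Wt in blue and Tg in orange, triangles for animals labelled male, with mean and SD in black and an axis per gene that starts at 0. The ranges of Wt and Tg animals overlap in all 5 genes.

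Promoters were then compared 1 by 1. Of 18 promoter and rest-of-gene regions with at least 3 cytosines in all 12 libraries, 0 were called between Tg and Wt by a logistic model with sex as covariate, at an adjusted p under 0.1 and a difference of at least 10 points. Over all genes that binomial model called 1.69% of 27051 regions. The overdispersion model, which lets animals of a group vary beyond counting error, called 0 member regions and 0% of all, and 1 member region had an unadjusted p under 0.05, against 5.94% of all regions. Its smallest adjusted p among members was 0.837. Tg was higher in 7 and lower in 11 of the 18 regions, from -1.96 to 3.97 points. Without the library labelled Wt male the rest of Ntrk3 differed by -2.93 points, from -0.804 with it (exact p = 0.0788 and 0.675). The rest of Ntf3 then differed by -1.39 points, from -0.556, and Ntf3 promoter 1 by -1.29 points, from -0.664 (exact p = 0.145 and 0.164 without it). Ntrk2 promoter 2 went from -0.231 to -0.641 points (exact p = 0.303 without it), and the rest of Ngfr from -0.385 to -0.192 points (exact p = 0.733).

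For Bdnf, promoter 5 had the widest gap. Its levels were 4.01%, 0.929% and 4.27% in the Wt females, 4.27% in the library labelled Wt male, and 3.19%, 6.10% and 12.4% as the lowest, median and highest in Tg animals. Of the 8 Tg animals, 5 stood above every Wt animal and the others inside the Wt range. Means were 3.37% ± 1.63 and 6.88% ± 3.41 (n = 4 and 8), a difference of 3.51 points (exact p = 0.0929, or 0.131 over the 175 splits that keep the sexes, overdispersion model adjusted p = 0.837). Without the cytosine at 109692973 the difference was 0.820 points (exact p = 0.659). At the other promoters Tg minus Wt was -0.958 points for promoter 1 (exact p = 0.313, or 0.127 points leaving out the library labelled Wt male, exact p = 0.964), -0.458 for promoter 2 (0.481), 0.406 for promoter 3 (0.331), -0.0229 for promoter 6 (0.903, and -0.0137 without that library) and -0.343 for promoter 7 (0.469).

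Ntf3 promoter 2 was the only region with an exact p under 0.05. It had 4.84%, 5.34% and 1.90% in the Wt females, 2.40% in the library labelled Wt male, and 0.283%, 1.93% and 2.94% in Tg animals. Wt females 1 and 2 stood above all Tg animals, and the other Wt libraries lay inside the Tg range. Tg minus Wt was -1.96 points (exact p = 0.0404, or 0.0514 with the sexes kept), and the overdispersion model gave an adjusted p of 0.875. Without Wt female 1 the difference was -1.55 points (exact p = 0.121), and without Wt female 2 it was -1.38 points (exact p = 0.152). Leaving out Tg male 3, Tg female 2, Tg female 3 or Tg female 4 also moved the exact p past 0.05, to 0.0697, 0.0576, 0.0697 and 0.0697. In females alone the difference was -2.68 points (exact p = 0.114), and with 2000 bp either side of the start it was -1.27 points (exact p = 0.0505). Other settings gave a larger difference with an exact p under 0.05. It was -3.50 points with 500 bp either side (exact p = 0.0162) and -2.98 points with at least 20 reads (exact p = 0.0101). Dropping Wt female 3 gave -2.53 points (exact p = 0.0242), and dropping the Wt library labelled male gave -2.37 points (exact p = 0.0364).

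At single cytosines the binomial model called 38 of the 859 members (4.42%), against 4.39% of the 1697156 cytosines tested, so the share was near the background. Of these, 15 were higher in Tg (2.39% of all cytosines were) and 23 lower (2% of all). The overdispersion model called 0 members and 0% of all cytosines, and 95 members (11.1%) had an unadjusted p under 0.05 by it, against 9.42% of all. Its smallest adjusted p among members was 0.512. Limma on logit levels also called 0 members and 0% of all cytosines. At 5 members (0.582%) the lowest level of one genotype exceeded the highest of the other, against 0.248% of all cytosines. They included 2 in Bdnf promoter 3, at 109677696 and 109677747 on the minus strand, with 2.70% to 3.17% and 1.39% to 3.23% in the Wt animals covered and 0% in every Tg animal. Their pooled levels were 1.01% and 0.842%, near the mitochondrial background of 0.988% to 1.18%. Wt female 2 covered neither, and the 2 cytosines are close enough to share reads. Another of the 5 was the Bdnf cytosine at 109693121, with 67.1% to 69.4% in 3 Wt and 43.4% to 66.1% in 8 Tg animals (binomial adjusted p = 0.233). The other 2, in Ntf3 and Ngfr, are given below. Calls were frequent where levels were intermediate: 33 of 154 members at 10% to 90% were called (21.4%), against 20.2% of such cytosines over the genome.

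Most calls lay in Ntrk2, which also held 73 of the 154 members at 10% to 90%. All 21 Ntrk2 calls (7 higher, 14 lower, of 174 members) were among those 73 (28.8%, against the 20.2% of such cytosines over the genome). Ntrk3 held 7 calls (4 higher, 3 lower, of 143 members), Ntf3 held 5 (1 higher, 4 lower, of 109), Ngfr held 4 (2 higher, 2 lower, of 143) and Bdnf held 1 higher of 290. Only 3 of the 38 lay in a promoter region, and 11 were covered in all 12 libraries. The other strand of the CpG was covered for 21 of the 38. It moved in the same direction for 8, by at least 10 points for 3, and was itself called for 2.

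The called cytosines described in most detail next, other than that of Bdnf, are shown with 14 bases either side of the CpG, in capitals, on the strand that was read (mm10, chr6:126164907-126164936, chr13:59074221-59074250, chr13:59107795-59107824, chr7:78553663-78553692 and chr11:95571872-95571901).
Ntf3 126164922, minus strand: ttacccagcagctcCGcgcaccgccccgcg
Ntrk2 59074235, plus strand: atgggtggcctgtgCGgagggcaaagagaa
Ntrk2 59107810, minus strand: agaaagcacagaggCGctgaggcagcaccc
Ntrk3 78553678, minus strand: catgggaaatcagcCGgaacagcttgtttg
Ngfr 95571887, minus strand: ctgcacagcgacagCGgcatctctgtggac

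The Bdnf cytosine at 109692973, in promoter 5 and shown above, had 18.3%, 0% and 18.6% in the Wt females, 14.6% in the library labelled Wt male, and 17.5%, 28.1% and 41.4% as the lowest, median and highest in Tg animals. The 0% of Wt female 2 rested on 16 reads, and 7 of the 8 Tg animals stood above every Wt library. Tg was higher by 12.8 points (binomial model adjusted p = 0.000305, overdispersion model p = 0.00439 and adjusted p = 0.512). The other strand differed by -2.97 points and with strands summed the CpG differed by 9.02 points, under the threshold of 10.

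In Ntf3, the cytosine at 126164922 lies in the 5′ untranslated first exon of promoter 2. It had 23.8%, 0% and 15.8% in the Wt females, 13.3% in the library labelled Wt male, and 0%, 0% and 4.08% in Tg animals. Wt females 1 and 3 and the library labelled Wt male stood above all Tg animals, and Wt female 2 was at 0%, a level that 5 Tg animals shared. The difference was -12.2 points (binomial adjusted p = 0.000302, overdispersion adjusted p = 0.512). It was -8.07 points without Wt female 1, and the other strand differed by -0.181 points. The cytosine at 126162570, 1 of the CpGs with unequal strands, had 96.9% to 100% in 3 Wt and 65.5% to 95.5% in 6 Tg libraries, so the ranges did not overlap. Its difference was -12.9 points, and -5.84 points without Tg female 1. In the first exon of promoter 1, the cytosine at 126166561 had 32.7% ± 11.4 in 3 Wt and 15.9% ± 15.0 in 6 Tg libraries, and its other strand differed by -11.5 points. It was no longer called without Wt female 1 (adjusted p = 0.119). In the coding exon, the cytosine at 126102122 had 59.0% ± 6.21 in 4 Wt and 80.2% ± 13.8 in 7 Tg libraries (binomial adjusted p = 0.0574). Its call was lost without the library labelled Wt male, Wt female 3, Tg female 2 or Tg female 3 (adjusted p = 0.108, 0.109, 0.158 and 0.102).

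In Ntrk2, 20 of the 21 calls lay in introns and 1 in the untranslated stretch near the 3′ end. The cytosine at 59074235, in an intron 265544 bp from the nearest start, had 17.2%, 21.3% and 31.9% in the Wt females, 5.41% in the library labelled Wt male, and 16.7%, 39.4% and 67.7% in Tg animals. Most Tg animals lay above the Wt range and 2 lay inside it, each at 16.7%. The difference was 20.9 points (binomial adjusted p = 9.35e-06, overdispersion p = 0.0324). The other strand differed by -5.76 points. The cytosine at 59107810, further into the gene, was at 100% in the 3 Wt libraries that covered it and at 66.7%, 78.4% and 100% as the lowest, median and highest of 6 Tg libraries. Its difference was -24.2 points (binomial adjusted p = 0.000795). The cytosine at 58980121 differed by -20.8 points over 11 libraries, and by -12.5 points without Tg female 1. That at 58810175, the call nearest to a start at 1484 bp, differed by 14.9 points over 10 libraries, with 1.12 points on the other strand. Its call was lost without Wt female 1, Wt female 3 or Tg female 1 (adjusted p = 0.134, 0.150 and 0.140). Of the calls, 4 stood within chr13:59127415-59127588, where Wt animals had 95.7% ± 3.54 and Tg animals 88.1% ± 8.93. An antisense gene, 4930415C11Rik, overlapped 16 Ntrk2 members with 5 of the calls, and C630044B11Rik overlapped 11 with 3 calls. Other annotated genes overlapped further members. Among them were the antisense genes Gm45346, over 56 Bdnf members that include those of promoters 1 and 2, and Gm9885, over 25 Ntrk3 members. Methylation at such cytosines belongs to both loci.

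In Ntrk3, the cytosine at 78553678, in an intron, had 44.4%, 35.7% and 14.3% in the Wt females, 0% in the library labelled Wt male, and 20%, 54.3% and 81.8% as the lowest, median and highest of 5 Tg libraries. Only the Tg library at 20% lay inside the Wt range. The difference was 27.3 points (binomial adjusted p = 6.88e-05, overdispersion p = 0.0156). The other 3 named cytosines lay in the part of the Ntrk3 gene record beyond the basic transcripts. That at 78597799 differed by -16.5 points, that at 78699136 by 10.9 points and that at 78718050 by 18.8 points. The calls at 78699136 and 78718050 were lost without the library labelled Wt male, with an adjusted p of 1 at both. With that library out, the sex term left the genotype contrast to the females. The read-weighted difference still held the Tg males, and was 3.38 points at 78699136 and 17.3 points at 78718050. In females alone, the contrast that was tested, the differences were 1.75 and 3.20 points. The call at 78699136 was also lost without Tg male 4, without Wt female 3 and with no sex term (adjusted p = 0.116, 0.112 and 0.125), and its difference was 16.7 points without Wt female 2.

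In Ngfr, 3 of the 4 calls lay in coding sequence at chr11:95571856-95571893. The cytosine at 95571887 had 20% and 0% in the 2 Wt females covered, 3.03% in the library labelled Wt male, and 0%, 25.8% and 60% in Tg animals. The Tg animals spanned the whole Wt range. The difference was 21.2 points (binomial adjusted p = 0.00103, overdispersion p = 0.0285), and the other strand differed by -6.97 points. The intronic cytosine at 95586295 had 14.3% to 21.2% in 3 Wt and 0% to 12.1% in 6 Tg libraries, which did not overlap. Its difference was -12.1 points and that of its other strand 0.877 points. It was no longer called without Tg female 1 or without Wt female 3 (adjusted p = 0.107 and 0.167).

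**Figure D5:**
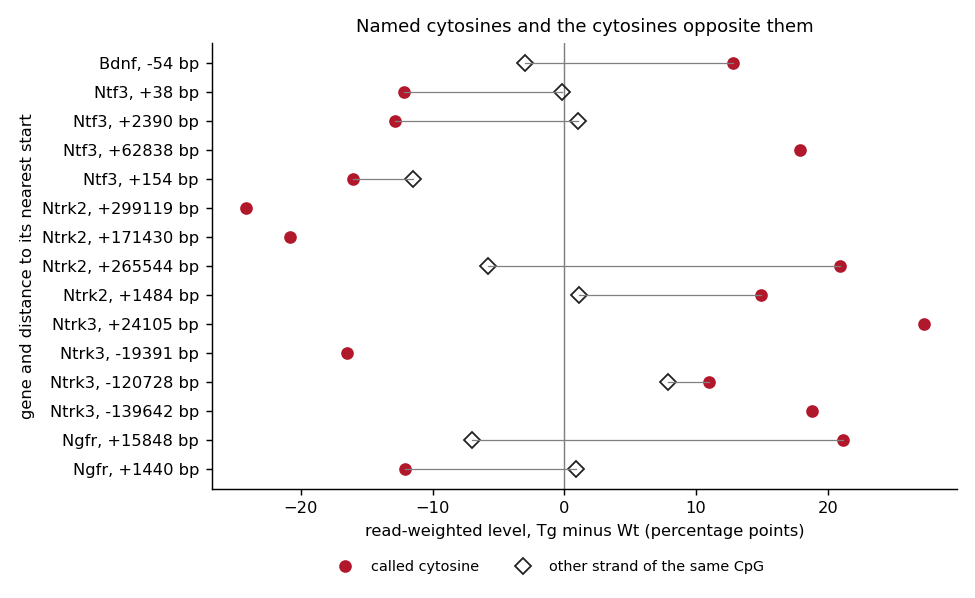
Difference of the read-weighted level, Tg minus Wt in percentage points, at the 15 named cytosines called by the binomial model (red circles) and at the other strand of the same CpG where it was covered (open diamonds). Of the 9 CpGs with both strands, 4 have both on the same side of 0, and 1 has the other strand at 10 points or more.

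Other genes of the pathway were counted the same way. Over 46 genes and 6496 cytosines, 194 were called by the binomial model (2.99%, with 120 higher and 74 lower in Tg), against 4.39% of all cytosines. The overdispersion model called 0, with 9.64% at an unadjusted p under 0.05. Among ligands and processing enzymes 54 of 1169 cytosines were called (4.62%, 38 higher, 16 lower). Sorcs2, a sorting receptor that binds the BDNF precursor, held 28 among its 308 cytosines, and Plat, the tissue plasminogen activator, held 10 among 40, all higher. Among receptors and partners 29 of 1277 were called (2.27%, 12 higher, 17 lower), 18 of them among the 352 of Lingo1, a co-receptor of Ngfr. In signalling genes 52 of 2716 were called (1.91%, 31 higher, 21 lower), 15 of them among the 273 of the kinase gene Akt1. Among regulators of Bdnf transcription 59 of 1334 were called (4.42%, 39 higher, 20 lower), with 31 among the 364 of Tcf4, a helix-loop-helix factor. The single genes were named because they held the most calls of their lists, so their counts are a description only. Calls were frequent at intermediate levels, and the part of the levels of these genes in their counts was not tested.

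Gene levels that varied most like those of the members over the 12 animals are given as a description, over 16197 genes. The closest to Bdnf was Alg14 (Pearson's r = 0.969), and to Ntf3 they were 1110065P20Rik and Yrdc, which share their cytosines (r = 0.909). For Ntrk2 it was Pstpip1 (r = 0.917), for Ntrk3 Ntpcr (r = 0.911) and for Ngfr Gm16104 (r = 0.915). The animals shared library and depth across all genes, and levels of small regions carry counting error.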

How the data were processed

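RRBS libraries of 12 mouse brains were analysed from read counts per CpG cytosine. According to the labels and methods, the authors had libraries made and sequenced paired-end by a commercial service, aligned reads to mm10 with Bismark and read them into methylKit. The deposited counts are, per animal and strand, the coverage and the reads called C or T, with no value under 10 reads. Versions were not given in the sources used here. Member genes, lists and tests were chosen with earlier results of these data known.

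From these counts 11 duplicated positions were dropped, and all 859 member positions were cytosines of a CpG in the reference. The binomial model was a logistic regression on genotype and labelled sex with a likelihood-ratio test, and the overdispersion model divided the deviance by a dispersion of at least 1 per cytosine and used an F test. Both models were fitted to 1697156 cytosines with 10 reads in at least 9 libraries, at least 2 of them Wt, and a library under 10 reads was left out of that cytosine's fit. Without the library labelled Wt male, the sex term left the genotype contrast of both models to the females. Benjamini-Hochberg adjustment ran over all cytosines (27051 regions for the region tests), and calls needed an adjusted p under 0.1 and a read-weighted difference of at least 10 points. Starts within 300 bp of each other were joined, regions spanned 1000 bp either side and needed 3 cytosines with 10 reads in all 12 libraries, and reads were summed. Named cytosines were at most 4 binomial calls per gene by overdispersion p, 1 within 50 bp, and named regions were all that were fitted. Sequences were read from the RefSeq GRCm38 (mm10) genome and promoter table.

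The models were tested on simulated data with 200 shifted of 20000 cytosines for Tg against Wt. With extra-binomial noise the binomial model recovered 200 with 209 false calls, and the overdispersion model recovered 146 with 3. The simulated shift was larger than the difference at any named cytosine. All simulated cytosines were covered in all 12 libraries, and adjustment ran over the 20000 only. The recovered counts therefore do not give the power for the differences reported above. The strength of the extra noise was set and not fitted to the data, where the median dispersion was 1.71 at members and 1.29 over all cytosines. The false calls therefore do not give the error rate of either model here. Python 3.11.15, numpy 2.4.6, scipy 1.17.1 and R 4.3.3 with limma 3.58.1 (pseudocount 1) were used. Reads carry no molecular identifiers, neighbouring cytosines share reads, and SDs are over animals. Alternatives varied reads, sites, sex term, strands, thresholds, windows and weighting, and left out each animal. The values of 1 listed gene are not reported here.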

Additional observations from a re-analysis of the deposited data

Results flagged for a closer look

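Values of single animals were set against the rest of their group for 18 regions and 5 genes in Wt and Tg animals, 46 groups in all. A gap between 1 animal and its nearest neighbour that was large against the range of the group was found in 7. Chance gives about 2.3 for independent groups with normally distributed values. Gene levels share cytosines with the regions and many levels lay near 0, so the 2.3 is a rough guide only. In the rest of Bdnf, Tg female 2 had 4.99% with the next Tg animal at 0.591%, and Wt female 2 had 1.07% with the other Wt animals at 0%. In Bdnf promoter 5, Wt female 2 had 0.929% with the next Wt animal at 4.01%. In the rest of Ntrk3, the library labelled Wt male had 11.9% with the next at 19.9%. In Ntrk3 promoter 1, Wt female 3 had 0.169% with the next at 0.698%, and in promoter 2, Tg female 3 had 2.72% with the next at 1.38%. The Ntrk3 gene level was 6.19% in Tg female 4, the library with the lowest coverage, with the next Tg animal at 4.36%.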

How the results depend on the processing

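The 38 cytosines called by the binomial model became 12 of 582 with at least 20 reads (1.85% of all cytosines), 11 of 482 covered in all 12 libraries (1.72% of all), 2 of 859 with a difference of at least 25 points (0.479% of all) and 0 by limma, and 31 to 46 when each animal was left out. The overdispersion model gave 0 to 0 when each animal was left out and 0 under the other alternatives, and both models gave 0 to 0 member regions without each animal and 0 otherwise. Gene differences of Tg minus Wt ranged, without each animal, from 0.0249 to 0.210 points in Bdnf, -1.84 to -0.674 in Ntf3, 0.957 to 3.15 in Ntrk2, -0.0283 to 0.559 in Ntrk3 and -0.659 to 0.0581 in Ngfr. The ends were without Tg female 2 and Tg male 2 in Bdnf, the library labelled Wt male and Wt female 2 in Ntf3, and Wt female 2 and that library in Ntrk2. The sign turned in Ntrk3 without the library labelled Wt male (-0.0283 points, exact p = 0.964) and in Ngfr without Wt female 1 (0.0581 points, exact p = 0.848). The rest of Ntrk3 differed by -0.804 points, and by -2.93 to 0.0465 when each animal was left out, turning in sign without Wt female 3. With at least 20 reads Bdnf differed by -0.0071 points (exact p = 0.964) and Ntf3 by -2.79 points (exact p = 0.0404). Ntf3 passed 0.05 in females alone (-2.30 points), and Ntrk3 did with all cytosines in at least 9 libraries (1.69 points). In that Ntrk3 setting the animals did not all cover the same cytosines. The cause of these changes was not tested. With 5000 bp upstream no gene gained a cytosine covered in all 12 libraries. Bdnf promoter 5 differed by 0.454 points with 20 reads, where the called cytosine drops out. Leaving out the called cytosine of Bdnf promoter 5 or of Ntf3 promoter 2 was chosen after seeing the data. In Ntf3 promoter 2 this gave -1.66 points (exact p = 0.0667). Tg and Wt animals were not paired, because the labels match no animal of one genotype with an animal of the other. Of the 15 named cytosines, 8 lost the call with strands summed, 14 at 25 points and 15 by limma (adjusted p = 0.881 to 0.890). Members had as few as 10 reads in a library, so small differences at 1 cytosine could not be resolved.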
